A study of Mus musculus with 15 samples.

Results

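The 32 genes described here are transcripts commonly used to mark astrocytes or to describe their work. They were found by exact match of the gene name on the array, and for a gene with several probes the probe with the highest mean over the 15 arrays was used. All 32 were measured, among 26117 genes tested. The probes of all 32 were well above background on all 15 arrays, so none entered the test through the group in which it was bright. The study concerned fear extinction in male mice of the inbred strain C57BL/6J. Animals that had been shocked in a box were put back into it every 24 h without the shock, until they froze less.

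Hippocampal total RNA, from the region that holds memory of places, was hybridised to one-colour Agilent arrays, 1 per sample, in 3 groups of 5 samples that the design text calls biological replicates. The ELF group was sampled 1 h after trial 5, the extinction trial with low freezing. The E1 group was sampled 1 h after the first such trial, while the mice still froze strongly. Control mice are named naive in the sample names, whereas the design text says they visited the conditioning context without conditioning, and no time between that visit and sampling was stated. All groups share the strain, sex and tissue, and no transgene or drug was used. The 75th percentile of spot intensity lay between 1441 and 2932 over the 15 arrays, and 83.5% to 97.2% of spots were well above background. The arrays lay on 4 slides: slide 1 held 4 control arrays, slide 2 held 3 E1 arrays and 1 control array, slide 3 held 2 ELF and 2 E1 arrays, and slide 4 held 3 ELF arrays. No slide held both ELF and control arrays.

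Astrocytes are the glial cells that take up glutamate and potassium released by firing neurons, return glutamine to them, pass ions and metabolites among themselves through gap junctions, and wrap blood vessels with endfeet rich in water channels. They also store the brain's glycogen, supply lactate and secrete lipoproteins. In the hippocampus, radial stem cells of the dentate gyrus share several astrocyte transcripts, among them Gfap, Fabp7, Hes5 and Sox9. In bulk tissue, fewer astrocytes and less RNA per astrocyte cannot be told apart.

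An array measures each gene through a short DNA probe, and the values below belong to those probes. The following probe sequences are printed because the results turn on them: Acsbg1 was the member that passed the test, Aldh1l1 had E1 arrays that lay entirely above the control arrays, Apoe was saturated, Slc1a3 had probes with unlike differences, and Aldoc had a saturated and an unsaturated probe. Each is read from the array files, 5′ to 3′, in lower case with no base marked. The Aldh1l1 and Apoe probes are given whole (60 bases) and the others by their first 30 bases.
Acsbg1: tgacatctccaatgccttcacgtgcaagta
Aldh1l1: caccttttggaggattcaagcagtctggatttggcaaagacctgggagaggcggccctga
Apoe: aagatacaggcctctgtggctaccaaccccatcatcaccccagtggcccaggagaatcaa
Slc1a3, brightest probe: gtttacccggtgtgatattttttatactaa
Slc1a3, second probe: cacttgaggctagaattttagtcttgtctt
Aldoc, brightest probe: agcgccaagtcatctcacatctcacatgcc
Aldoc, second probe: acaggatcactttaaccctctggatcgtat
Coordinates are those of the array files' annotation, on build mm7. The Acsbg1 probe lies at chr9:54634529-54634588 on the minus strand. The Aldh1l1 probe, at chr6:90677026-90677586 on the plus strand, takes its 60 bases from a span of 561 bases and so crosses a splice junction. The Apoe probe lies at chr7:17378757-17378816 on the minus strand. The 2 Slc1a3 probes lie at chr15:8463725-8463784 and chr15:8510062-8510121 on the minus strand. The 2 Aldoc probes lie at chr11:78408037-78408096 and chr11:78409262-78409321 on the plus strand. No annotation of mm7 was used here, so exons, introns and untranslated regions are not assigned.

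Values below are log2 intensities relative to the 75th percentile of the same array, and differences are log2 differences of group means with the standard error (SE) of a limma fit over all 15 arrays. The threshold for a call was 0.05 for limma's p after Benjamini-Hochberg adjustment across all 26117 genes. In ELF against control hippocampus, 1 of the 32 astrocyte genes was called, and it was higher in ELF. Of all genes tested, 2.15% were called in this comparison and 1.49% were called higher. In E1 against control none of the 32 was called, beside 0.188% of all genes. With the replicate number as a block in a fit of those 2 groups, Atp1b2 was called there, beside 12.3% of all genes. In ELF against E1 none was called, beside 0.00766% of all genes. At an unadjusted limma p under 0.05, 7 members stood out in ELF against control, 4 higher and 3 lower, beside 23% of all genes, 15.7% higher and 7.3% lower. In E1 against control there were also 7, 5 higher and 2 lower, beside 13.1% of all genes, 9.08% higher and 4.04% lower. In ELF against E1 there were 6, 1 higher and 5 lower, beside 9.64% of all genes, 5.64% higher and 4% lower. The differences were small in all 3 comparisons: they ran from -0.40 to 0.35 for ELF minus control, from -0.28 to 0.31 for E1 minus control and from -0.38 to 0.39 for ELF minus E1. The 95% interval of the difference stayed within 0.5 of 0 for 18, 27 and 23 members in these comparisons, and within 1 of 0 for all members but Slc4a4 in ELF minus control, whose lower bound was -1.01. These intervals bound the changes that the arrays allow and do not show that levels were equal.

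**Figure D1:**
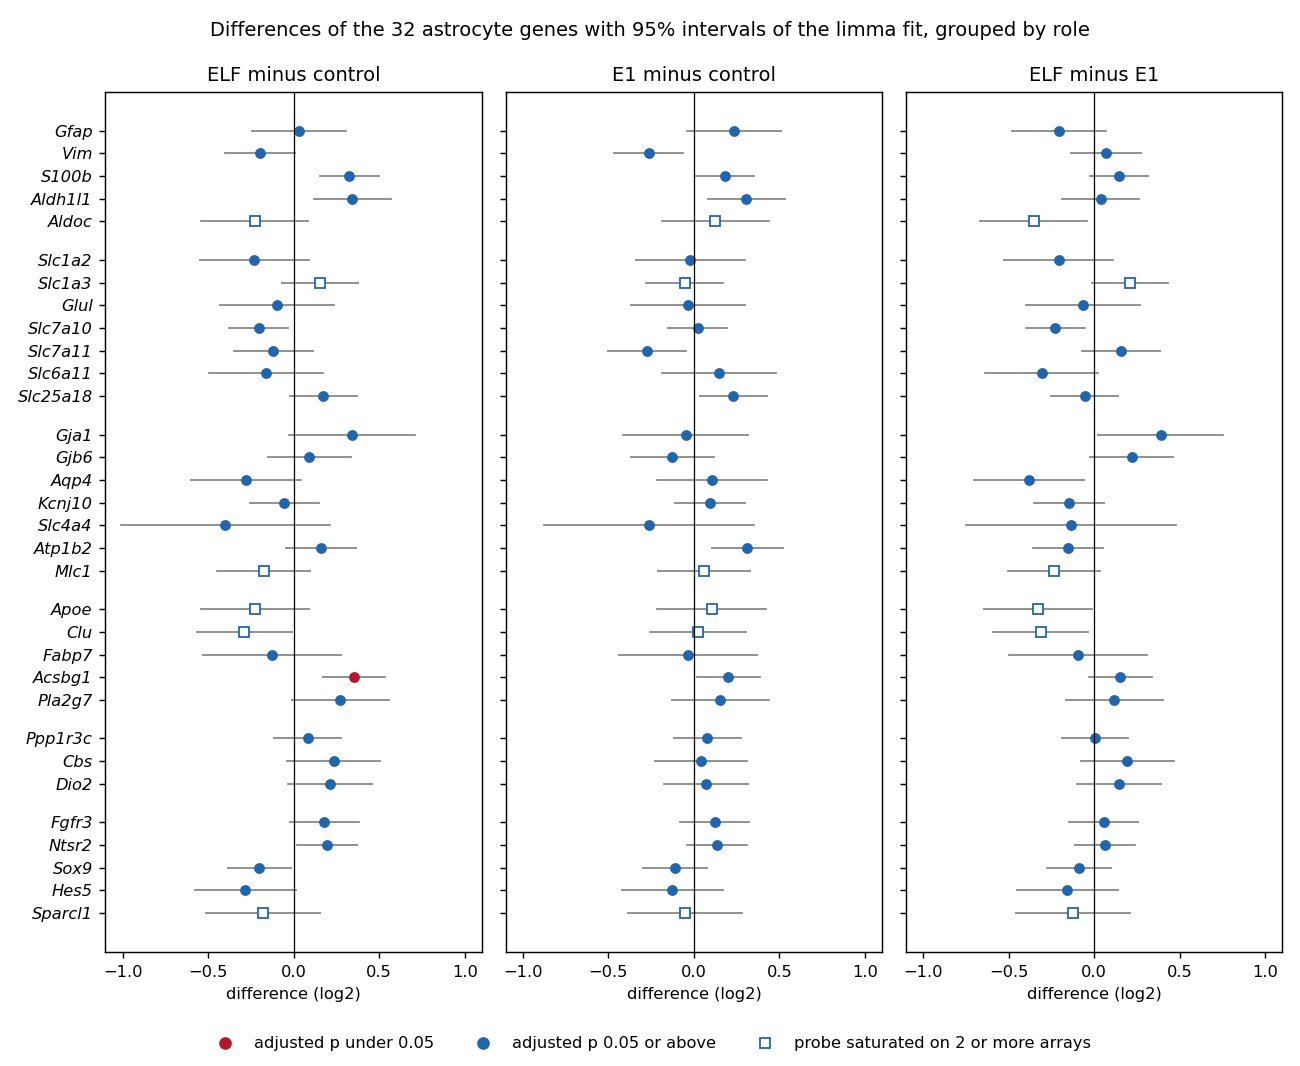
Difference of each of the 32 astrocyte genes (log2, horizontal axis) with its 95% interval, for ELF minus control, E1 minus control and ELF minus E1, with genes grouped by role down the page. The red point is Acsbg1 in ELF minus control (0.35), the member that passed the test, and the open squares are probes saturated on 2 or more arrays.

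The median difference of the 32 members was -0.08 for ELF minus control, beside 0.10 over all genes tested. It was 0.06 for E1 minus control, beside 0.04 over all genes, and -0.08 for ELF minus E1, beside 0.05. Against those all-gene medians, 12, 17 and 12 of the 32 members lay above. The members did not share a direction: 15 were above 0 and 17 below in ELF minus control, 20 above and 12 below in E1 minus control, and 14 above and 18 below in ELF minus E1. By group means, 9 members ran upward over control, E1 and ELF (S100b, Aldh1l1, Acsbg1, Pla2g7, Ppp1r3c, Cbs, Dio2, Fgfr3 and Ntsr2) and 7 ran downward (Slc1a2, Glul, Slc4a4, Fabp7, Sox9, Hes5 and Sparcl1). These orders describe means, most of which did not differ beyond the spread of the arrays.

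The probes of 6 members were too bright for the scanner on some or all arrays. Apoe, Clu and Sparcl1 were saturated on all 15 arrays, Aldoc on 13, Mlc1 on 11 and Slc1a3 on 2 (both of them ELF arrays). Over the 15 arrays the unscaled log2 intensity of Apoe varied by only 0.12, against 1.01 after division by each array's 75th percentile. For Clu these ranges were 0.25 unscaled and 0.82 scaled, and for Aldoc 0.20 and 1.13. A saturated spot cannot brighten further, so its scaled value mostly follows the array's own brightness: E1 array 5, with the lowest 75th percentile of the 15, held the highest scaled value of 5 of the 6 saturated members. That array also held the highest value of 6 of the 26 members with no saturated array, as many as ELF array 3. Over the 26 members with no saturated array the medians were 0.06 for ELF minus control, 0.07 for E1 minus control and -0.03 for ELF minus E1.

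**Figure D2:**
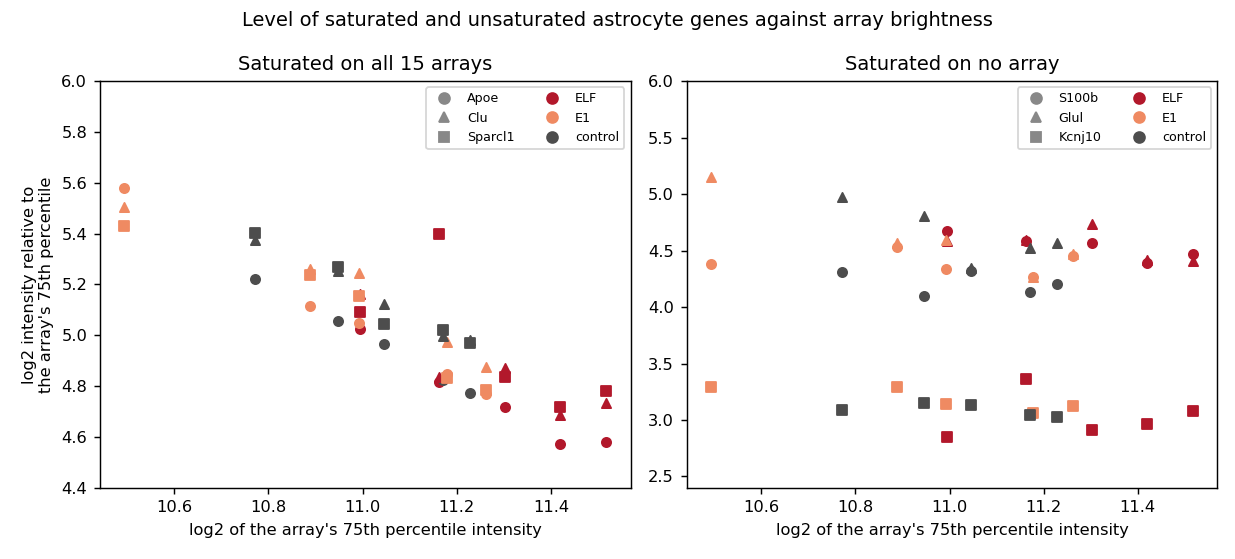
Level of 3 members saturated on all 15 arrays (Apoe, Clu, Sparcl1; left) and of 3 members saturated on none (S100b, Glul, Kcnj10; right) against the log2 of each array's 75th percentile intensity, coloured ELF, E1 and control. The saturated members fall with array brightness, whichever group the array belongs to, except for Sparcl1 on ELF array 3 (5.40). On the right no spot was flagged as saturated, but unscaled Glul reached 16.04 and S100b 15.99, within the 15.98 to 16.10 of Apoe.

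In ELF against control, the uncalled members nearest to the threshold, S100b and Aldh1l1, were genes of cytoskeleton and cell identity. S100b, a calcium-binding protein of astrocytes that is also made in the oligodendrocyte lineage, had levels of 4.57, 4.67, 4.58, 4.47 and 4.39 on the ELF arrays. It had 4.46, 4.27, 4.34, 4.53 and 4.38 on the E1 arrays, and 4.31, 4.20, 4.13, 4.10 and 4.32 on the control arrays. Every ELF array lay above every control array, and the E1 arrays overlapped both. S100b averaged 4.54 ± 0.11 in ELF and 4.21 ± 0.10 in control (SD, n = 5 each), a difference of 0.33 (SE 0.080; limma adjusted p = 0.0502) that just missed the threshold, and it passed in 5 of 28 alternative analyses. For E1 minus control the difference was 0.18 (limma adjusted p = 0.346). No S100b spot was flagged as saturated, but its unscaled log2 intensity reached 15.99, within the 15.98 to 16.10 of Apoe. The mean level of 11 oligodendrocyte markers ran from 1.80 to 1.92 on the ELF arrays, from 1.73 to 2.24 on the E1 arrays and from 1.84 to 2.02 on the control arrays, so it was not raised where S100b was high. Some genes of that list were as bright as the saturated members, and their saturation is not given.

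Aldh1l1, a folate enzyme much used as a marker of all astrocytes, had 1.64, 1.33, 1.92, 1.66 and 1.54 on the ELF arrays. Its levels were 1.57, 1.47, 1.60, 1.59 and 1.65 on the E1 arrays and 1.31, 1.39, 1.06, 1.18 and 1.41 on the control arrays. All E1 arrays lay above all control arrays, and ELF array 2 lay within the control range. The difference was 0.34 for ELF minus control (SE 0.10; limma adjusted p = 0.0843) and 0.31 for E1 minus control (SE 0.10; limma adjusted p = 0.215). On slide 2, the 3 E1 arrays averaged 0.14 above the control array of that slide.

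Gfap, the intermediate filament of astrocytes and the best known marker of their reactive state, had 2.24, 1.61, 2.18, 2.33 and 1.87 on the ELF arrays, 2.01, 2.21, 2.38, 2.24 and 2.42 on the E1 arrays and 2.01, 1.91, 2.01, 2.14 and 2.02 on the control arrays. The 3 groups overlapped. Gfap differed by 0.03 for ELF minus control (SE 0.13; limma adjusted p = 0.908) and by 0.23 for E1 minus control (limma adjusted p = 0.470), and all 3 of its probes gave a positive difference in both. Vim, another intermediate filament that is also made by endothelial and other cells, had 2.04, 2.13, 1.87, 2.18 and 2.02 on the ELF arrays, 1.88, 2.05, 1.93, 1.93 and 2.13 on the E1 arrays and 2.38, 2.31, 2.32, 2.28 and 1.95 on the control arrays. The 4 control arrays of slide 1 were high and control array 5, on slide 2 with 3 E1 arrays, was as low as the E1 arrays. The difference in Vim for E1 minus control was -0.26 (SE 0.095; limma adjusted p = 0.240), it was 0.0059 within slide 2, and without control array 5 it was -0.34 and passed the threshold (limma adjusted p = 0.0370).

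Aldoc, the brain form of the glycolytic enzyme aldolase, was read by a saturated probe with levels of 4.59, 4.91, 4.68, 4.25 and 4.47 on the ELF arrays, 4.70, 4.76, 4.87, 4.95 and 5.38 on the E1 arrays and 5.04, 4.60, 4.66, 4.88 and 4.86 on the control arrays. Since 5 ELF, 4 E1 and 4 control spots were saturated, no fold is given. Its second probe was saturated on no array and had 1.75, 2.24, 2.07, 1.73 and 1.85 on the ELF arrays, 1.80, 1.77, 1.61, 1.57 and 1.79 on the E1 arrays and 1.79, 1.50, 1.39, 1.58 and 1.57 on the control arrays. On this second probe the difference was 0.36 for ELF minus control and 0.22 for ELF minus E1. Holding slide as a fixed block, 4 members were called in ELF against E1, beside 19.6% of all genes: Aldoc, Apoe and Clu were lower and Slc1a3 was higher. These calls are not read as changes, since all 4 probes were saturated on arrays that enter them, Slc1a3 on both ELF arrays of slide 3, the one slide that held ELF and E1 arrays together.

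**Figure D3:**
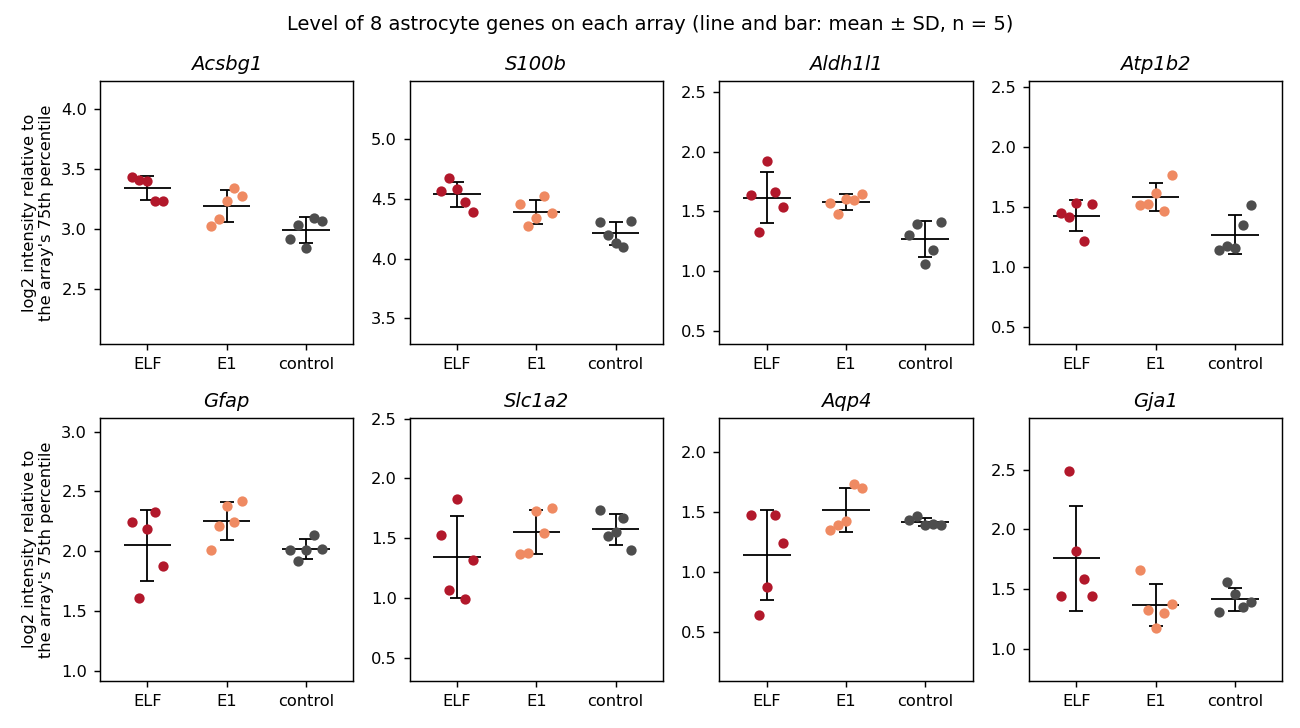
Level of 8 astrocyte genes (log2 intensity relative to the array's 75th percentile, vertical axis, 2.2 units high in every panel) on each ELF, E1 and control array, with the mean and SD of 5 arrays. Acsbg1 and S100b were higher on every ELF array than on any control array, whereas Gja1 and Aqp4 differ mainly through ELF arrays 2 and 3.

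The members of glutamate and amino acid transport gave no call. Slc1a2 and Slc1a3 are the astrocyte transporters that clear synaptic glutamate, and Glul turns it into glutamine. Slc1a2 had 1.53, 1.07, 1.83, 0.99 and 1.32 on the ELF arrays, 1.37, 1.38, 1.73, 1.54 and 1.75 on the E1 arrays and 1.73, 1.52, 1.55, 1.67 and 1.40 on the control arrays. The ELF arrays held both the lowest and the highest value, and the difference of ELF minus control was -0.23 (SE 0.15; limma adjusted p = 0.364). For E1 minus control it was -0.02 (limma adjusted p = 0.971).

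Glul had 4.73, 4.58, 4.59, 4.41 and 4.42 on the ELF arrays, 4.47, 4.27, 4.59, 4.57 and 5.15 on the E1 arrays and 4.98, 4.57, 4.52, 4.80 and 4.34 on the control arrays. The groups overlapped throughout, with differences of -0.10 for ELF minus control and -0.03 for E1 minus control (limma adjusted p = 0.730 and 0.954). No Glul spot was flagged as saturated, but its unscaled log2 intensity reached 16.04, within the 15.98 to 16.10 of Apoe. Its range was 0.65 unscaled and 0.89 scaled, so these differences may be compressed. Slc1a3 had 4.50, 4.46, 4.95, 4.74 and 4.48 on the ELF arrays, 4.44, 4.50, 4.38, 4.26 and 4.51 on the E1 arrays and 4.31, 4.66, 4.41, 4.51 and 4.46 on the control arrays. The 2 highest values came from ELF arrays 3 and 4, the arrays on which this probe was saturated, and the difference of ELF minus control was 0.15 (limma adjusted p = 0.387).

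The second Slc1a3 probe behaved differently from the brightest. It had -0.90, -0.81, -0.93, -0.61 and -0.83 on the ELF arrays, -0.81, -0.82, -1.17, -1.12 and -1.27 on the E1 arrays and -0.24, -0.40, -0.22, -0.47 and -0.69 on the control arrays. Every E1 array lay below every control array, and so did every ELF array except ELF array 4 against control array 5. On slide 2 the 3 E1 arrays read -0.81, -0.82 and -1.17, and control array 5 read -0.69, the lowest of the control arrays. The 4 control arrays of slide 1 read -0.47 to -0.22. The difference of E1 minus control was -0.63 on this probe, with a limma adjusted p of 0.0478 in a fit, added after the data had been seen, that took for each gene the brightest probe saturated on no array. In that fit 0.194% of all genes were called, and the brightest probe gave -0.05 (limma adjusted p = 0.874). The third Slc1a3 probe gave -0.32 for E1 minus control. Which transcripts of the gene each probe reads was not tested.

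The amino acid exchangers differed by small amounts. Slc7a10, which exchanges small neutral amino acids, had 1.45, 1.60, 1.58, 1.45 and 1.46 on the ELF arrays, 1.68, 1.87, 1.71, 1.75 and 1.67 on the E1 arrays and 1.97, 1.64, 1.69, 1.63 and 1.64 on the control arrays. All ELF arrays lay below all E1 and all control arrays. It was the member of smallest p in ELF minus E1, at -0.23 (SE 0.081; limma adjusted p = 0.422), and for ELF minus control the difference was -0.21 (limma adjusted p = 0.154). Groups that did not overlap were seen for 3 of 32 members in ELF against control (Acsbg1, S100b and Slc7a10; 4.75% of all genes), for 1 in E1 against control (Aldh1l1; 3.73% of all genes) and for 1 in ELF against E1 (Slc7a10; 2.06% of all genes).

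Slc7a11, the cystine-glutamate exchanger, was lower in E1 than in control on all 4 of its probes, by 0.22 to 0.71 on the log2 scale, and its brightest probe gave -0.28 (SE 0.11; limma adjusted p = 0.279). For ELF minus control that probe gave -0.12. Slc6a11, a GABA transporter of astrocytes, differed by -0.16 for ELF minus control and by 0.15 for E1 minus control. Slc25a18, a mitochondrial glutamate carrier, averaged 0.55 ± 0.11 in ELF, 0.61 ± 0.16 in E1 and 0.38 ± 0.09 in control (SD, n = 5 each), with limma adjusted p-values of 0.265 for ELF and 0.291 for E1 against control.

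Among the genes of gap junctions, water and ions, Gja1 and Gjb6 encode the 2 connexins of astrocytes. Gja1 had 1.45, 2.49, 1.82, 1.59 and 1.44 on the ELF arrays, 1.66, 1.32, 1.18, 1.30 and 1.38 on the E1 arrays and 1.31, 1.56, 1.46, 1.36 and 1.39 on the control arrays. ELF array 2 stood above the rest, and 2 other ELF arrays lay within the control range. The difference was 0.34 for ELF minus control (SE 0.17; limma adjusted p = 0.247) and 0.39 for ELF minus E1 (limma adjusted p = 0.501). Gjb6 differed by 0.09 for ELF minus control and by 0.22 for ELF minus E1.

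Aqp4, the water channel of the endfeet, had 1.48, 0.64, 0.87, 1.48 and 1.24 on the ELF arrays, 1.35, 1.39, 1.42, 1.74 and 1.70 on the E1 arrays and 1.43, 1.47, 1.40, 1.40 and 1.39 on the control arrays. Control arrays lay close together, and ELF arrays 2 and 3 were low. The difference was -0.38 for ELF minus E1 (SE 0.15; limma adjusted p = 0.457) and -0.28 for ELF minus control (limma adjusted p = 0.281), and all 3 Aqp4 probes were negative in both. On ELF array 2 the other 2 probes were also the lowest of the 15 arrays (-0.38 and -0.33), and on ELF array 3 they were not (0.79 and 0.03). The same ELF array 2 was the highest for Gja1 and the lowest for Gfap.

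Atp1b2, a subunit of the sodium pump, had 1.45, 1.42, 1.53, 1.21 and 1.52 on the ELF arrays, 1.52, 1.53, 1.62, 1.47 and 1.77 on the E1 arrays and 1.14, 1.18, 1.15, 1.35 and 1.52 on the control arrays. Control array 5, on the slide of 3 E1 arrays, matched them, and the 4 control arrays of slide 1 were lower. Atp1b2 had the smallest p of the members in E1 against control, with a difference of 0.31 (SE 0.096; limma adjusted p = 0.167) that was 0.04 within slide 2. With the replicate number as a block and only these 2 groups in the fit, it was the 1 member called (limma adjusted p = 0.0389, with 12.3% of all genes called). Without control array 5 the members called were Atp1b2 (0.37) and Vim, with 4.28% of all genes called.

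Slc4a4, the bicarbonate cotransporter, varied more than any other member, with levels of -0.29, -0.86, -0.15, 0.54 and -0.94 on the ELF arrays, 0.00, -0.08, -0.25, -0.36 and -0.34 on the E1 arrays and 0.23, 0.44, 0.43, 0.10 and -0.90 on the control arrays. ELF arrays 2 and 5 and control array 5 were low, and its difference of ELF minus control was -0.40 (SE 0.29; limma adjusted p = 0.412). On ELF array 2 the other 2 Slc4a4 probes were also low (-1.91, the lowest of the 15 arrays, and -2.51). On ELF array 5 they were not (-1.13 and -2.01), and on control array 5 they read -1.16 and -2.29, inside the range of the other control arrays. Kcnj10, the inward rectifier that buffers potassium, was steadier and averaged 3.03 ± 0.20 in ELF, 3.18 ± 0.11 in E1 and 3.09 ± 0.05 in control (SD, n = 5 each). Mlc1, an endfoot membrane protein, was saturated on 11 arrays, and no difference is read from it.

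The genes of lipid carriage and metabolism held the member that passed the test. Acsbg1, an acyl-CoA synthetase that activates long-chain fatty acids, had 3.43, 3.41, 3.40, 3.23 and 3.23 on the ELF arrays, 3.02, 3.08, 3.23, 3.35 and 3.27 on the E1 arrays and 2.91, 3.04, 2.84, 3.09 and 3.07 on the control arrays. Every ELF array lay above every control array, and the E1 arrays lay between and overlapped both. Acsbg1 averaged 3.34 ± 0.10 in ELF, 3.19 ± 0.14 in E1 and 2.99 ± 0.11 in control (SD, n = 5 each). It rose in ELF relative to control by 0.35 (SE 0.086; 95% interval 0.17 to 0.54; 1.28-fold; limma adjusted p = 0.0498), and for E1 minus control the difference was 0.20 (limma adjusted p = 0.331). The adjusted p stood just under the threshold, and it passed in 5 of 28 alternative analyses. After quantile normalization Acsbg1 and S100b were both called, beside 6.56% of all genes, and likewise with probes required to be well above background on all 15 arrays (3.38% of all genes) or saturated on none (2.26% of all genes).

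Leaving out any array in turn ended the Acsbg1 call in 13 of 15 cases, with a highest limma adjusted p of 0.149 (without control array 3), and kept the difference between 0.32 and 0.38. Without ELF array 4 the adjusted p was 0.0186, and 4 members were called, all higher in ELF (Acsbg1, S100b, Cbs and Dio2; 19.8% of all genes were called). Without control array 5 it was 0.0286, and Acsbg1 and S100b were called (8.08% of all genes). Within slide 3 the ELF arrays averaged 0.01 above the E1 arrays, and within slide 2 the E1 arrays averaged 0.05 above the control array. In the fit that had slide as a fixed block, ELF minus control was 0.06 (limma adjusted p = 0.888) for Acsbg1 and 0.11 for S100b, so group and slide cannot be told apart for either gene beyond these few arrays.

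By group, the mean level of 12 microglia markers ran in the same order as Acsbg1. It was 0.66 to 0.80 on the ELF arrays, 0.55 to 0.79 on the E1 arrays and 0.45 to 0.63 on the control arrays. Within slides it did not: on slide 2 the E1 arrays read 0.60, 0.55 and 0.58, below control array 5 at 0.62. On slide 3, ELF arrays 3 and 4 read 0.74 and 0.66, below E1 arrays 4 and 5 at 0.76 and 0.79. None of the 12 was called by limma in ELF against control, and 7 had an unadjusted p under 0.05, all higher in ELF (15.7% of all genes tested were higher at that p). The mean level of 13 endothelial markers ran the other way, at -1.42 to -1.18 on the ELF arrays, -1.16 to -1.04 on the E1 arrays and -0.78 to -0.06 on the control arrays, with 7 of the 13 called lower in ELF (2.15% of all genes were called) and 2 in E1 (0.188% of all genes). No endothelial gene was called in ELF against control with only the 2 groups compared or with slide as a fixed or random block. Among these, Cldn5, a tight junction protein, fell by 0.74 in ELF and by 0.93 in E1 relative to control (limma adjusted p = 0.0285 and 0.0197), and these calls were kept in 17 and 20 of 28 alternative analyses. The mean level of 12 neuron markers spanned 3.39 to 3.60 on the ELF arrays, 3.49 to 3.74 on the E1 arrays and 3.43 to 3.58 on the control arrays. Saturation was counted for the members' probes and is not given for list genes. Some list genes were as bright as saturated members: on E1 array 5 Snap25 and Camk2a, both neuron markers, read 5.43 and 5.42, beside 5.38 for Aldoc. The part of microglia, endothelial cells and neurons in the Acsbg1 result was not tested.

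Apoe and Clu, the lipid-carrying proteins that astrocytes secrete, were saturated on every array. Apoe read 4.72, 5.03, 4.82, 4.58 and 4.57 on the ELF arrays, 4.77, 4.85, 5.05, 5.12 and 5.58 on the E1 arrays and 5.22, 4.77, 4.82, 5.06 and 4.97 on the control arrays. These values follow array brightness as described above, no fold is given, and a change in Apoe or Clu could not have been seen with these probes. Fabp7, a fatty acid binding protein of astrocytes and radial stem cells, averaged 2.77 ± 0.39 in ELF, 2.86 ± 0.29 in E1 and 2.89 ± 0.21 in control (SD, n = 5 each). Pla2g7, which breaks down platelet-activating factor, differed by 0.27 for ELF minus control (SE 0.13; limma adjusted p = 0.235), with its highest level, 2.62, on ELF array 3.

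The 3 members of intermediary metabolism all had positive differences without a call. The all-gene medians were positive too (0.10 for ELF minus control, 0.04 for E1 minus control and 0.05 for ELF minus E1). In each comparison 2 of the 3 members lay above that median. Dio2, which makes active thyroid hormone for the brain, averaged 1.65 ± 0.29 in ELF, 1.51 ± 0.05 in E1 and 1.44 ± 0.05 in control (SD, n = 5 each). ELF arrays 1 and 2 were high (1.97 and 1.93), ELF array 4 was lowest of all 15 (1.29), and the limma adjusted p for ELF against control was 0.279. Cbs, which makes cystathionine from homocysteine, differed by 0.23 for ELF minus control (limma adjusted p = 0.280), and Ppp1r3c, which brings a phosphatase to glycogen, by 0.08 (limma adjusted p = 0.605).

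Of the receptors, transcription factors and secreted proteins, Fgfr3, a growth factor receptor, and Ntsr2, a neurotensin receptor, differed by 0.18 and 0.20 for ELF minus control (limma adjusted p = 0.267 and 0.174). Sox9, a transcription factor of astrocytes, averaged 1.34 ± 0.16 in ELF, 1.43 ± 0.07 in E1 and 1.54 ± 0.10 in control (SD, n = 5 each), with a limma adjusted p of 0.188 for ELF against control. When the same fit was run on the values of the authors' deposited table, the Sox9 difference was -0.29 and passed (limma adjusted p = 0.0371). Sox9 was the 1 member called there, beside 6.06% of all genes. On the scanner intensities the second Sox9 probe gave -0.10 for ELF minus control and -0.26 for E1 minus control. The dimmest Sox9 probe gave 0.57 and 0.73. On slide 2 that dimmest probe read -3.81, -3.80 and -3.56 on the E1 arrays and -3.55 on control array 5. Hes5, a Notch target, differed by -0.28 for ELF minus control (limma adjusted p = 0.235). Sparcl1, a secreted protein that promotes synapses, was saturated on all 15 arrays by both of its probes.

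**Figure D4:**
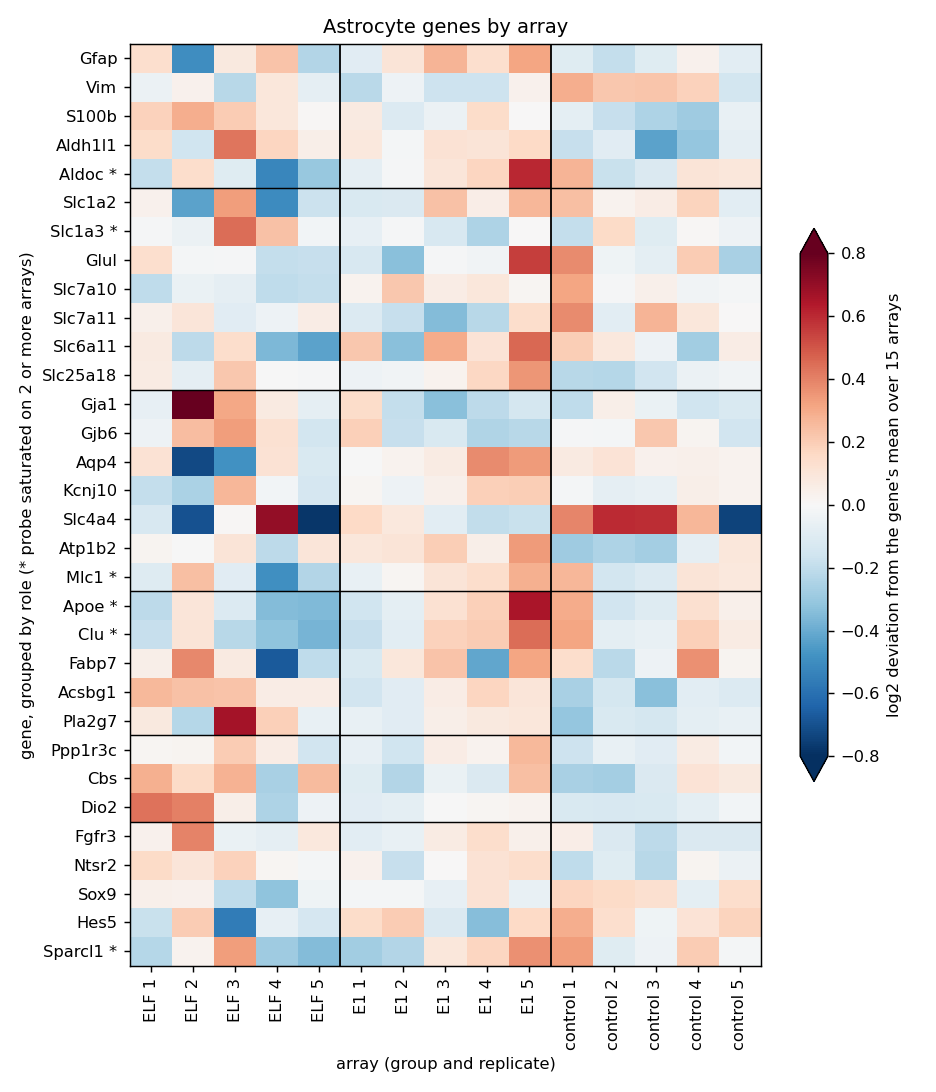
Deviation of each of the 32 genes from its own mean over the 15 arrays (log2, colour), with ELF, E1 and control arrays from left to right and genes grouped by role. Starred genes, saturated on 2 or more arrays, were highest on E1 array 5 except for Slc1a3, while Gja1 and Aqp4 stand out on ELF array 2.

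Spread between arrays differed among the groups. Over the 26 members with no saturated array the median SD was 0.20 in ELF, 0.16 in E1 and 0.11 in control. The ELF group had the widest SD for 16 of these 26 members, E1 for 6 and control for 4. In control arrays the SD ran from 0.03 (Aqp4) to 0.56 (Slc4a4), and in ELF arrays from 0.07 (Slc7a10) to 0.60 (Slc4a4). The correlation between arrays over all genes ran from 0.951 to 0.997 within ELF, from 0.986 to 0.996 within E1 and from 0.986 to 0.996 within control. ELF array 3 also had a choroid plexus marker mean of -2.32, against 0.56 to 0.89 on the other ELF arrays, 0.84 to 1.52 on the E1 arrays and 1.13 to 1.77 on the control arrays, and it held the highest value of 7 of the 32 members. E1 array 5 held the highest value of more members, 11 of the 32. The part of choroid plexus tissue in the astrocyte values was not tested.

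Several probes were kept for 15 of the 32 genes, 56 of 57 member probes in all. All kept probes of a gene shared a direction in 6 of the 15 for ELF minus control, in 10 for E1 minus control and in 6 for ELF minus E1. Gfap, Ntsr2 and Ppp1r3c had every probe above 0 against control in both groups. Aldoc, Slc1a2, Slc1a3, Glul, Slc6a11, Slc7a11, Slc4a4, Fgfr3 and Sox9 had probes of both signs in ELF minus control. For those genes the sign of the difference depended on the probe.

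**Figure D5:**
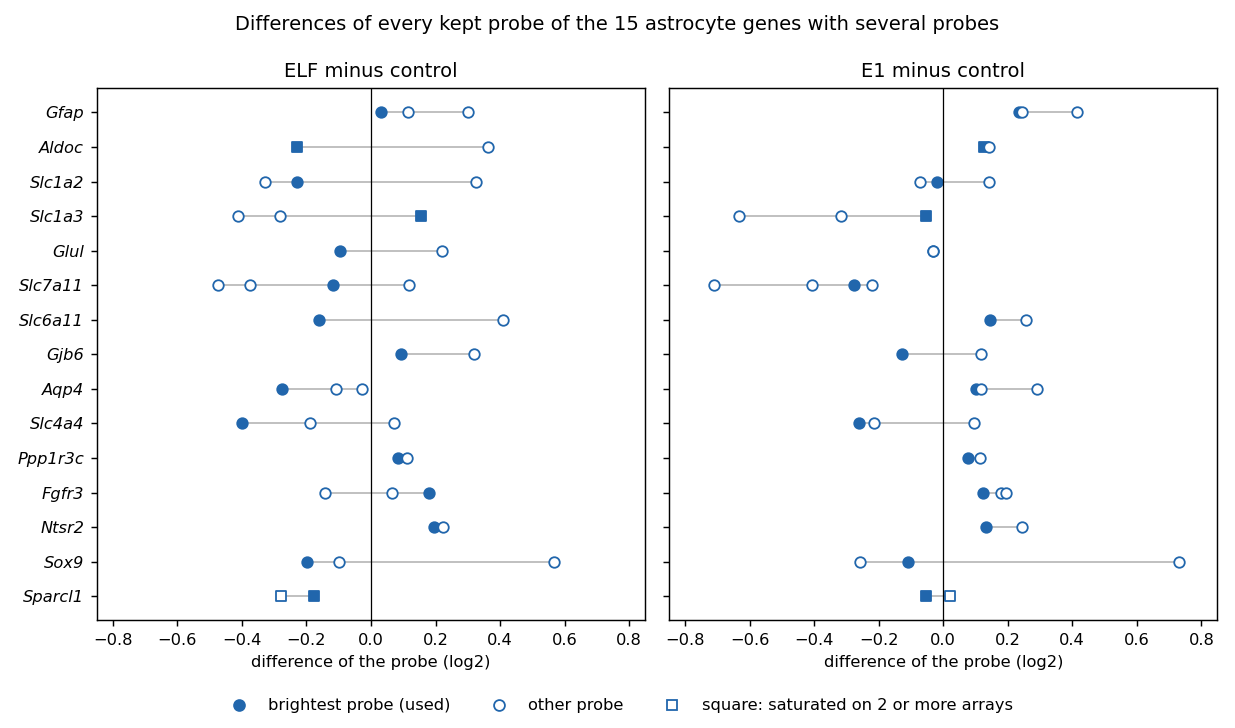
Difference of every kept probe (log2, horizontal axis) of the 15 astrocyte genes with several probes, for ELF minus control and E1 minus control. Filled symbols are the brightest probe of each gene, open symbols the others and squares saturated probes; the 4 Slc7a11 probes and the 3 Slc1a3 probes all lie below 0 in E1 minus control.

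Other genes of astrocytes were read from lists that do not overlap the members. Of 48 measured genes of a further astrocyte list, 2 rose in ELF relative to control and none fell (1.49% of all genes were called higher). None was called by limma in E1 against control or in ELF against E1. At an unadjusted p under 0.05 there were 10 higher and 3 lower in ELF against control, beside 15.7% and 7.3% of all genes. There were 8 higher and 3 lower in E1 against control, beside 9.08% and 4.04%, and also 8 higher and 3 lower in ELF against E1, beside 5.64% and 4%. Their median difference was 0.13 for ELF minus control, beside 0.10 over all genes. Some of the 48, such as Mfge8 (5.33 on E1 array 5), were as bright as saturated members, and their saturation is not given. Lcat, which esterifies cholesterol on lipoproteins, had -0.88, -0.85, -0.87, -1.12 and -0.95 on the ELF arrays, -1.26, -1.40, -1.18, -0.93 and -1.20 on the E1 arrays and -1.63, -1.54, -1.56, -1.32 and -1.33 on the control arrays. Every ELF array lay above every control array, and Lcat rose in ELF by 0.54 (SE 0.099; limma adjusted p = 0.0259). This call was kept in 19 of 28 alternative analyses, over which the difference ran from 0.12 to 0.59. On slide 3, ELF arrays 3 and 4 read -0.87 and -1.12, beside -0.93 and -1.20 on E1 arrays 4 and 5. On slide 2 the E1 arrays read -1.26, -1.40 and -1.18, beside -1.33 on control array 5. Cldn10, a claudin, had 2.03, 2.10, 1.98, 1.79 and 1.81 on the ELF arrays, 1.61, 1.60, 1.71, 1.71 and 1.61 on the E1 arrays and 1.52, 1.67, 1.59, 1.67 and 1.62 on the control arrays. All ELF arrays lay above all others, and the difference of ELF minus control was 0.33 (SE 0.076; limma adjusted p = 0.0443), which passed in 7 of 28. No gene at all was called in ELF against control with only the 2 groups compared (with or without the replicate block), with slide as a random block or without control array 2 or 3, so every call of this comparison ended there.

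None of 16 genes of glycogen and lactate metabolism, 15 partners of the glutamate-glutamine cycle or 25 reactive astrocyte genes was called by limma in any comparison. At an unadjusted p under 0.05 in ELF against control, beside 15.7% of all genes higher and 7.3% lower, there were 1 higher and 2 lower glycogen genes, 3 higher and 2 lower cycle partners, and 2 higher and 1 lower reactive genes. In E1 against control, beside 9.08% and 4.04%, there were 0 glycogen genes, 2 higher cycle partners, and 1 higher and 1 lower reactive gene. In ELF against E1, beside 5.64% and 4%, there were 2 higher and 1 lower glycogen genes, 2 higher and 4 lower cycle partners, and 2 higher reactive genes. The nearest to the threshold was Aldh5a1, a mitochondrial enzyme of GABA breakdown, at 0.33 for ELF minus control (limma adjusted p = 0.0512). Slc16a3, a lactate transporter, differed by 0.42 for ELF minus control (limma adjusted p = 0.0797). Slc38a3, which exports glutamine from astrocytes, differed by -0.39 for ELF minus E1 (limma adjusted p = 0.264), and Pfkfb3, which drives glycolysis, by 0.32 (limma adjusted p = 0.387). Among the reactive genes, Cd14 differed by 0.51 and Ggta1 by 0.33 for ELF minus control (limma adjusted p = 0.119 and 0.144).

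Of 9 measured stem cell markers, Thrsp, a lipogenic factor of adult stem cells, had 1.57, 1.81, 1.74, 1.56 and 1.32 on the ELF arrays, 1.23, 1.27, 1.41, 1.50 and 1.48 on the E1 arrays and 1.16, 1.23, 1.01, 1.31 and 1.20 on the control arrays. ELF arrays lay above all control arrays, and Thrsp rose in ELF by 0.42 (SE 0.10; limma adjusted p = 0.0481), a call kept in 7 of 28 alternative analyses. Eomes, a transcription factor of committed neuronal progenitors, fell by 0.59 in ELF and by 0.84 in E1 relative to control (limma adjusted p = 0.0323 and 0.0131), and these calls were kept in 17 and 23 of 28. No other marker of the 9 was called, beside 2.15% of all genes in ELF and 0.188% in E1 against control. At an unadjusted p under 0.05 there were 1 higher and 2 lower in ELF against control, beside 15.7% and 7.3% of all genes. In E1 against control there were 2 lower, beside 4.04%. The median of the 9 for ELF minus control was -0.003, with 4 above 0 and 5 below. The members that stem cells also express, Gfap, Fabp7, Hes5 and Sox9, differed by 0.03, -0.13, -0.28 and -0.20 for ELF minus control, and none of the 4 was called.

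Markers of the other cells in the dissected tissue were read in the same fit. Besides Cldn5, the endothelial genes Abcb1a, Kdr, Flt1, Ptprb, Emcn and Vwf fell in ELF relative to control, by 0.65 to 1.66 on the log2 scale, and Kdr fell by 0.86 in E1 (limma adjusted p = 0.0489), a call kept in 10 of 28 alternative analyses. Choroid plexus markers had a median difference of -1.32 for ELF minus control over 12 genes without a call by limma, and 9 of them had an unadjusted p under 0.05, all lower (7.3% of all genes were lower at that p). ELF array 3 carried much of that size: without it the median was -0.63, again with 9 at an unadjusted p under 0.05. Sostdc1 and Prlr, the nearest to the threshold among them, differed by -1.27 and -1.42 with that array included (limma adjusted p = 0.0838 and 0.0733). Igf2, a growth factor of the meninges and choroid plexus, was the 1 gene called of 12 meningeal and fibroblast markers (2.15% of all genes were called). It fell by 0.89 in ELF relative to control (limma adjusted p = 0.0480), a call kept in 11 of 28. The list went both ways, with 4 genes above 0 and 8 below, a median of -0.08 and a highest difference of 0.30. At an unadjusted p under 0.05 there were 2 lower and none higher, beside 7.3% and 15.7% of all genes.

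No neuron, oligodendrocyte, microglia or ependymal marker was called by limma in any comparison. At an unadjusted p under 0.05 in ELF against control, beside 23% of all genes, there were 4 of 12 neuron markers (2 higher, 2 lower), 1 of 11 oligodendrocyte markers (higher), 7 of 12 microglia markers (higher) and 1 of 3 ependymal markers (lower). In E1 against control, beside 13.1%, there were 2 neuron, 1 oligodendrocyte and 2 microglia markers, all higher, and 1 ependymal marker, lower. In ELF against E1, beside 9.64%, there were 4 neuron markers (1 higher, 3 lower) and 1 oligodendrocyte marker (lower), and none of the microglia or ependymal lists. The neuronal genes of smallest p were Syn1, at 1.00 for E1 minus control (limma adjusted p = 0.105), and Tubb3, at 0.31 (limma adjusted p = 0.165). On slide 2, Syn1 read 4.14, 3.82 and 4.20 on the E1 arrays and 3.93 on control array 5. Tubb3 read 3.34, 3.24 and 3.29 there, and 3.29 on control array 5. The control arrays of slide 1 were lower, at 2.84 to 3.45 for Syn1 and 2.77 to 3.07 for Tubb3. The oligodendrocyte gene Mobp differed by 0.27 for ELF minus control (limma adjusted p = 0.206). The microglial receptor Trem2 differed by 0.46 and Tmem119 by 0.33 for ELF minus control (limma adjusted p = 0.0527 and 0.101). For the ependymal genes Foxj1 and Rarres2 the differences of ELF minus control were -0.37 and 0.15 (limma adjusted p = 0.147 and 0.562).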

How the data were processed

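Intensity values of 15 one-colour arrays were analysed. Per the file headers, the deposited intensity columns (processed, mean and background signal) came from Agilent Feature Extraction 9.5.3.1, with the processed signal background-subtracted. The authors' deposited table holds log2 values that correlate with log2 mean signal at 0.996 or more on each array. Its base and direction were set by that comparison, and how it was normalized is unknown. Limma is named in the submitters' processing notes.

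Control and outlier spots were left out. Each log2 processed intensity was set relative to the array's 75th percentile, and spots of a probe were averaged to 41174 probes. Probes well above background on at least 5 of 15 arrays were kept (38457), and the brightest probe per gene name was used (26117 genes). Saturated spots stayed in. For the comparisons of labelled groups, limma 3.58.1 (R 4.3.3) was fitted over all arrays with no covariate, using lmFit and eBayes, two-sided, with Benjamini-Hochberg adjustment. The number of arrays limits the precision. The pipeline was tested on simulated data. Of 32 members, 28 matched a RefSeq entry of GRCm38.p6 by accession, all with the same symbol.

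The members, lists and alternatives were chosen with earlier results of these data known. Values on each array are printed for members called, the 3 of smallest p per comparison, and 9 prominent markers; of other lists, the genes called, or else the 2 of smallest p. Same-numbered E1 and control arrays deviated together over all genes (correlations 0.142 to 0.299), and each array correlated best with its own number in 2 of 5 cases. The reported fit has no block, and the replicate block is given as an alternative. ELF numbers did not pair (-0.435 to 0.311 with control, -0.400 to 0.170 with E1). The alternatives for genes of other lists were added after the data had been seen. Alternatives covered background correction, scaling, filter, probe choice, slide, replicate block and each array left out. A gene of the oligodendrocyte list is not reported here by name.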

Additional observations from a re-analysis of the deposited data

Results flagged for a closer look

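Within a group of 5 arrays, an array was listed here when its gap to the nearest other array took up more than 0.71 of the group's range. This was found in 7 of the 96 groups of 5 arrays that the 32 members form, where chance gives about 1 in 20. Control array 5 was low for Vim (1.95, with the others at 2.28 to 2.38; gap share 0.760) and for Slc4a4 (-0.90, with the others at 0.10 to 0.44; gap share 0.750). That array is the only control array of slide 2. Control array 1 was high for Slc7a10 (1.97, with the others at 1.63 to 1.69; gap share 0.815), and control array 4 was low for Sox9 (1.36, with the others at 1.56 to 1.60; gap share 0.831). E1 array 1 was high for Gjb6 (3.21, with the others at 2.77 to 2.89; gap share 0.726), and E1 array 4 was high for Sox9 (1.55, with the others at 1.37 to 1.42; gap share 0.713). ELF array 4 was low for Cbs (-1.38, with the others at -0.97 to -0.84; gap share 0.764). None of these probes was saturated.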

How the results depend on the processing

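The count of members called in ELF against control was 1 as reported. It was 2 after quantile normalization (Acsbg1 and S100b), with a filter of well above background on all 15 arrays and with the brightest probe saturated on no array, and 0 with normexp background correction, a median shift, no filter, the mean of all probes, only the 2 groups compared, slide as a fixed or random block, and the replicate block in 15 arrays or in the 2 groups. Leaving out 1 array gave 0 to 4. The authors' deposited table also gave 1, but it was Sox9, lower. In E1 against control the count, 0 as reported, was 1 with the replicate block in the 2 groups (Atp1b2), 1 with the brightest probe saturated on no array (Slc1a3, lower), and 0 to 2 with 1 array left out. In ELF against E1 it was 0, and 4 with slide as a fixed block (Aldoc, Apoe and Clu lower, and Slc1a3 higher, all on probes saturated on some or all arrays; 19.6% of all genes were called). The replicate block changed no other call of a member except those of Acsbg1 above. The cause of these changes was not tested.

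The median member difference of ELF minus control, -0.08 as reported, was -0.18 after a median shift, -0.17 in the authors' table, 0.064 with the mean of all probes and 0.056 with probes saturated on no array. For ELF minus E1, -0.08 as reported, it was 0.021 with probes saturated on no array. The median shift moved the all-gene median of ELF minus control to -0.0047, against 0.10 as reported, and Acsbg1 then differed by 0.25. Vim in E1 minus control was 0.0059 with slide as a fixed block, and Aldoc in ELF minus E1 was 0.22 on its unsaturated probe. Over all genes, 562 calls in ELF against control became 0 to 1712 over the alternatives (0 to 5160 with 1 array left out), 49 in E1 against control became 0 to 3201 (8 to 1119), and 2 in ELF against E1 became 0 to 5120 (0 to 11). The 562 were 389 higher and 173 lower, against 780 and 803 in the authors' table.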
